A study of Mus musculus with 20 samples.

Results

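The genes described here are 37 genes of G2 and mitosis, chosen by name because their products act between the end of DNA replication and cell division. All 37 had a row in the gene table, out of 29956 gene rows, and all 37 were among the 13541 genes abundant enough to be tested. They were measured by sequencing of poly(A) RNA from melb-a cells, a mouse melanoblast line (melanoblasts are the precursors of pigment cells), wild type in every library. The 20 libraries formed 5 groups of 4 biological replicates, which the study's design text calls independent. Parental cells received no virus. The other groups received a lentivirus with a short hairpin RNA: against luciferase (shLuciferase), with a scrambled sequence (shScramble), or against Hira, which codes for a histone chaperone (shHIRA I, shHIRA II). Virus was applied for 16 h with 8 µg/ml polybrene and cells were selected with 1 µg/ml puromycin, so parental cells differ from all other groups by virus and by selection. The growth factors in the medium of all groups were SCF at 10 ng/ml and Fgf2 at 40 pM, with 10% serum. The study asked how the transcriptome of these cells changes when HIRA is reduced.

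A cell enters mitosis when CDK1, a protein kinase, is switched on by its cyclin partners. The kinases PLK1 and the Aurora kinases then build the spindle, and the spindle checkpoint holds the anaphase-promoting complex back until every kinetochore has caught microtubules. CDC20 then activates that complex, cyclin B is destroyed, chromatids part and the cell divides. The RNAs of these genes are low in early G1, rise in S phase and peak in G2 and M, so in a dividing culture their levels go up and down together. HIRA places the replacement histone H3.3 on chromatin outside of DNA replication.

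Library totals ran from 14952948 to 20669874 counts. Hira fell to 48.3% of the control shRNA level with shHIRA I (log2 fold change -1.05, SE 0.14, adjusted p = 5.155e-05, edgeR quasi-likelihood test), with all 4 libraries below the 8 control libraries. With shHIRA II it stood at 87.8% (adjusted p = 0.306, log2 fold change -0.19, SE 0.14): a reduction was not detected, and its libraries are called shHIRA II-labelled here. Of 10 melanoblast markers, 8 averaged over 1 TPM (a level corrected for gene length and library size) in every group. The exceptions were Ednrb, listed at 0 in 17 libraries, and Sox10, which averaged between 0.0257 TPM in shLuciferase and 3.79 TPM in shScramble. The summed melanoblast markers ranged from 2480 to 4290 TPM in the parental and control libraries, from 975 to 2990 TPM with shHIRA I and from 661 to 1060 TPM in the shHIRA II-labelled libraries. All 6 leukocyte markers stayed below 1 TPM. Of 6 keratinocyte markers, 4 stayed below 1 TPM, while Cdh1 averaged from 1.30 to 5.60 TPM by group and Trp63 reached 1.05 TPM. Of 5 Schwann cell markers, 4 averaged over 1 TPM in every group, and their sum ranged from 102 to 472 TPM. Of 4 endothelial markers, 2 stayed below 1 TPM, and Pecam1 and Tek reached 6.1 and 3.11 TPM. The summed fibroblast markers ranged from 50.3 to 110 TPM with shHIRA I and from 5.22 to 39.9 TPM elsewhere, and the part of this in any result below was not tested. Mitochondrial mRNA made up 1.23% of the counts in shHIRA I replicate 3 and 2.88% in shHIRA II replicate 2, against 4.45% to 9.96% in the other 18 libraries. All 4 shHIRA II-labelled libraries (2.88% to 4.71%) lay below all 8 control libraries (6.43% to 9.96%). This share therefore cannot be separated from that group.

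Per length, Cdk1 itself was the most abundant of the genes, with a mean level of 198 TPM over the 20 libraries. It was followed by Cdca3, which serves in the destruction of the mitotic inhibitor WEE1, at 183 TPM. Cks2 and Cks1b, small proteins that bind cyclin-dependent kinases, were at 159 and 146 TPM. Ncapd2, a subunit of condensin I, was at 147 TPM and Top2a, the topoisomerase that untangles sister chromatids, at 136 TPM. Cyclin B1 (Ccnb1), cyclin A2 (Ccna2) and cyclin B2 (Ccnb2) had mean levels of 84.4, 69.6 and 69.3 TPM. Among the kinases, Aurka, Plk1 and Aurkb were near each other at 54.4, 51.7 and 48.5 TPM, whereas Ttk and Bub1, checkpoint kinases, were at 11.6 and 8.98 TPM. The lowest levels were those of the kinetochore motor Cenpe (7.83 TPM) and the cytokinesis kinesin Kif20b (4.59 TPM). Counting could have split some of these genes with near-identical copies. In GENCODE M21, 31.7% of the 31-base words of Cks2 also occur in another gene, 27.7% of those of Ccnb1, 25.5% of Cdc20, 17.3% of Cks1b and 14.8% of Plk1. Ccna2, Cdc20, Ube2c, Nusap1 and Tacc3 overlap a named gene on the opposite strand (Exosc9, Elovl1, Tnnc2, Oip5 and Tmem129). The library kit marks strand, but the sources used here do not say whether the counting used it.

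The levels of these genes differed more between libraries of 1 group than between groups. Cdk1 in parental cells was at 187, 221, 239 and 237 CPM (counts scaled to library size, not corrected for length; replicates 1 to 4 in order, here and below). In shLuciferase it was at 248, 68.9, 148 and 144 CPM, and in shScramble at 258, 171, 140 and 134 CPM. With shHIRA I it was at 226, 76.4, 226 and 205 CPM, and in the shHIRA II-labelled libraries at 165, 213, 169 and 128 CPM. Replicate 1 was thus the highest library of both control groups, replicate 2 of shLuciferase and of shHIRA I was far below its group, and the 4 transduced groups overlapped throughout. Ccnb1 had the same libraries at its ends in shLuciferase, at 185 CPM in replicate 1 and 49.5 CPM in replicate 2. With shHIRA I it was at 191 CPM in replicate 1 and 43.5 CPM in replicate 2, the lowest library of that group for Cdk1 as well. Cdc20, the activator of the anaphase-promoting complex, went from 61.0 to 296 CPM within shLuciferase. Plk1 went from 25.9 to 142 CPM within shHIRA I. Top2a ranged from 158 to 636 CPM within shHIRA I and from 481 to 603 CPM within the parental group. Ndc80, a core kinetochore protein, ranged from 22.7 to 72.5 CPM within shHIRA I and from 43.1 to 57.5 CPM in the shHIRA II-labelled libraries.

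All 37 genes were highest in replicate 1 of shLuciferase, and all 37 in replicate 1 of shScramble. In shLuciferase 34 of 37 were lowest in replicate 2, the exceptions being the 3 that were lowest in replicate 3. In shHIRA I, 30 were highest in replicate 1, 26 were lowest in replicate 2 and the other 11 were lowest in replicate 3. The ratio of the highest to the lowest library of a group had a median over the 37 genes of 3.48 in shLuciferase, 2.16 in shScramble and 4.34 in shHIRA I. In the parental group it was 1.36, and in the shHIRA II-labelled libraries 1.38, so the wide spread lay in 3 of the 4 transduced groups. The widest ratio in parental cells was that of Kif20b, at 7.93, 76.6, 29.4 and 13.6 CPM.

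Averaged over the 37 genes, the log2 CPM relative to the mean of all libraries gives a score for each library. It was 0.34, 0.55, 0.45 and 0.47 in parental cells, 0.73, -1.05, -0.09 and 0.01 in shLuciferase, and 0.67, 0.02, -0.49 and -0.38 in shScramble. It was 0.70, -1.15, -0.40 and 0.40 with shHIRA I and -0.14, -0.13, -0.14 and -0.39 in the shHIRA II-labelled libraries. The group means and SDs (n = 4) were 0.45 ± 0.09, -0.10 ± 0.73, -0.04 ± 0.52, -0.11 ± 0.83 and -0.20 ± 0.13 in the same order. Differences between groups made up 19.1% of the sum of squares of the score and differences between libraries of a group 80.9%. Among the 4 transduced groups alone, 1.07% lay between groups. With 4 libraries per group, part of such a share arises without any group difference, and no reference share was computed. For the genes one by one, the SD within groups had a median of 0.63 on the log2 scale, against 0.37 for all 13541 genes tested, and all 37 were above that median of all genes. The share of a gene's sum of squares between groups had a median of 19.4% for the 37 and 42.3% for all genes tested. In bulk RNA, fewer cells in G2 and mitosis and less of these RNAs per cell cannot be told apart, for these libraries or for any group below.

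**Figure D1:**
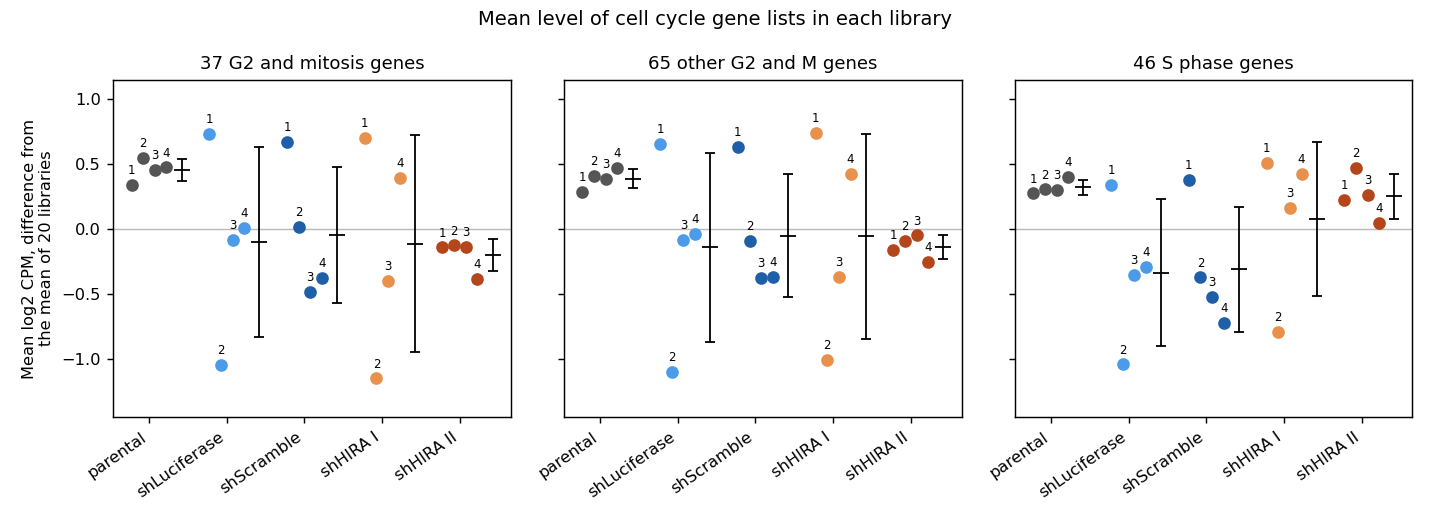
Score of each library (mean log2 CPM relative to the mean of 20 libraries, y axis) for the 37 genes, for 65 other G2 and M genes and for 46 S phase genes, by group; numbers are replicates, and the bars beside the points show the mean and SD of 4 libraries. The 37 genes spread from -1.15 to 0.70 within shHIRA I and from 0.34 to 0.55 within parental cells.

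**Figure D2:**
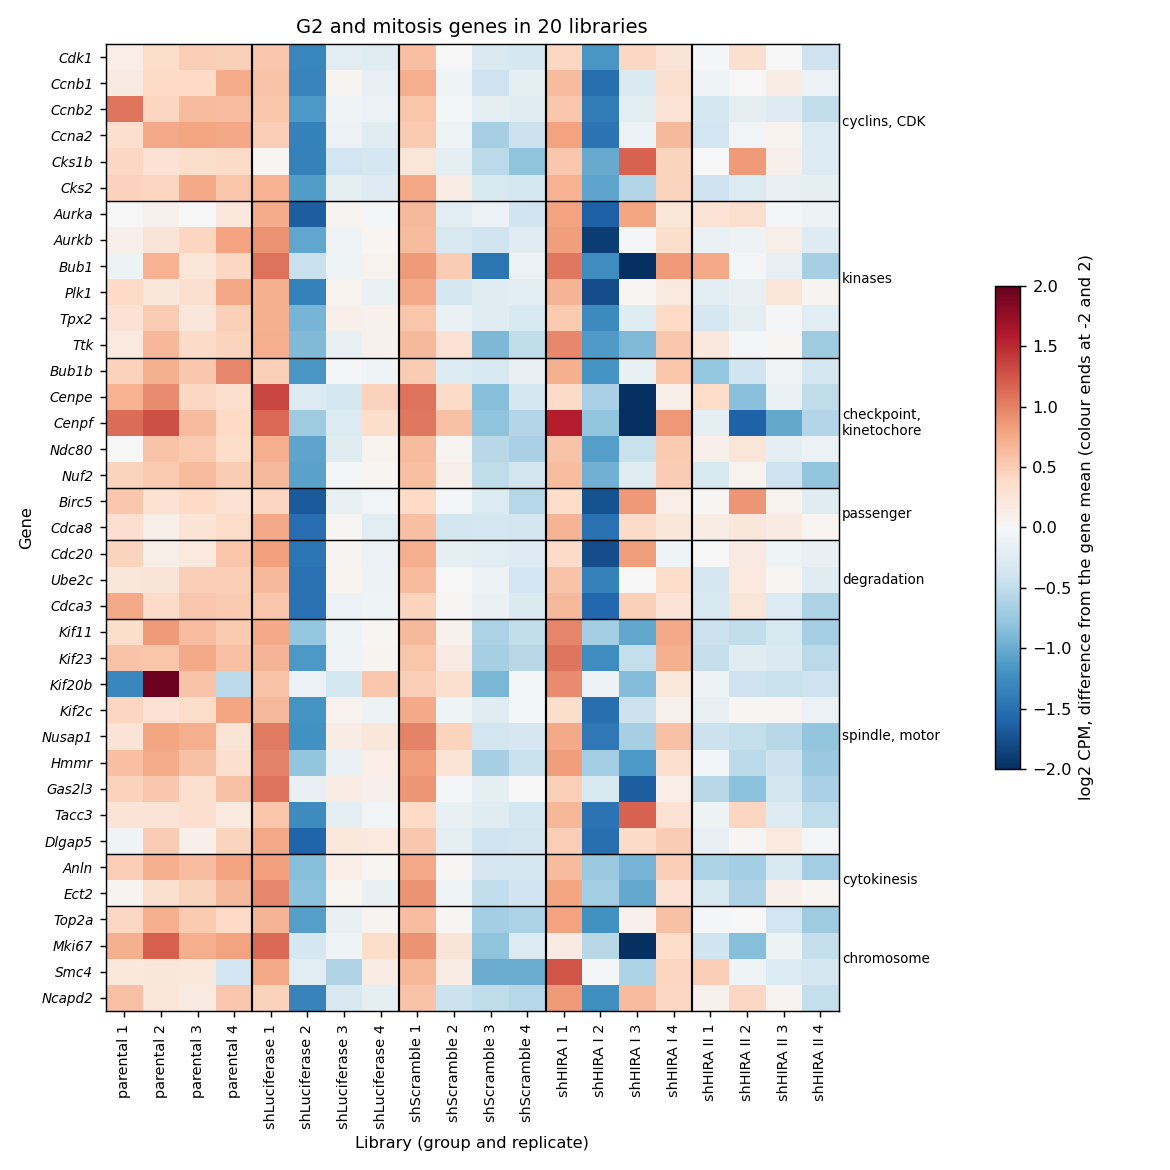
Level of each of the 37 genes (rows, by role) in each library (columns, by group and replicate) as log2 CPM relative to the mean of the gene over 20 libraries; the colours end at -2 and 2. The columns of shLuciferase replicate 2 and shHIRA I replicate 2 are low in most rows, and replicate 1 of both control groups is the highest of its group in every row.

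Promoters of many G2 and M genes carry a cell cycle genes homology region (CHR), read by the DREAM and MYB-MuvB complexes, and CCAAT boxes, read by NF-Y. RefSeq promoters of build GRCm38.p6 were at hand for 32 of the 37 genes (33 promoters, since Ect2 has a pair); Ccna2, Aurkb, Tpx2, Dlgap5 and Smc4 were not matched. In the 250 bases before the start, the CHR core TTTGAA occurred on either strand in 36.4% of the 33 promoters and in 16% of all 32851 promoters of the table. CCAAT occurred on either strand in 75.8% and 33.8%, and both words together in 33.3% and 5.55%. In the 150 bases nearest the start the shares were 33.3% and 9.07% for TTTGAA, 75.8% and 24.5% for CCAAT, and 30.3% and 2.24% for both. A match is no measured binding. The 150 bases before the start are printed for the 5 genes that were lower in HIRA hairpin cells than in parental cells (described below), and for Top2a and Kif11 as genes with both words close to the start. Capitals mark TTTGAA and CCAAT or, where they lie on the other strand, TTCAAA and ATTGG; the sequences are 5′ to 3′ on the strand of the gene.
Mki67, chr7:135716380-135716529, minus strand: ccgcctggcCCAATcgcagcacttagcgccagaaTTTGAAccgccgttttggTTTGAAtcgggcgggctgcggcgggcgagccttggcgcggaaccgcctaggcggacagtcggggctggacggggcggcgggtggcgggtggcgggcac
Anln, chr9:22389207-22389356, minus strand: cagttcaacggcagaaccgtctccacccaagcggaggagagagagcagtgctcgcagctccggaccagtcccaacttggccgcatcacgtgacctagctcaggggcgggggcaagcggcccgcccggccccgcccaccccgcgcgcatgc
Ccnb2, chr9:70421555-70421704, minus strand: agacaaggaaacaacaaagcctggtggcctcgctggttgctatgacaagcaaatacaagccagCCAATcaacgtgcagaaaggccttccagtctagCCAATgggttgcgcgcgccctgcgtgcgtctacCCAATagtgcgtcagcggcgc
Gas2l3, chr10:89443968-89444117, minus strand: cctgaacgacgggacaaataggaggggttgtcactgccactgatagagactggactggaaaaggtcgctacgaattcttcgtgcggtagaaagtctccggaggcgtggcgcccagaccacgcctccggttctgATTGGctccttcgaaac
Bub1b, chr2:118598061-118598210, plus strand: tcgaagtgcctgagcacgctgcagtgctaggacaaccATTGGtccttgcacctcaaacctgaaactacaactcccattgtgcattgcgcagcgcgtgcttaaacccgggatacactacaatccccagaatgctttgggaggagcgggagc
Top2a, chr11:99024190-99024339, minus strand: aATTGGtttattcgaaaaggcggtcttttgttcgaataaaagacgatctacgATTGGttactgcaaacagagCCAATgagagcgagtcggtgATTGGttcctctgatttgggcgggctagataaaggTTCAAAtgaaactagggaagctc
Kif11, chr19:37376232-37376381, plus strand: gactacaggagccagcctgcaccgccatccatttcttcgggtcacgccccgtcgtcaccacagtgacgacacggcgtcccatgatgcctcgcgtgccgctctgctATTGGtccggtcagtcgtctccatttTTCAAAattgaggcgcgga
Of the 5 genes lower in HIRA hairpin cells, Mki67 holds both words in this window, Ccnb2, Gas2l3 and Bub1b hold CCAAT, and Anln holds neither.

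The comparison called HIRA knockdown set both HIRA hairpin groups against both control shRNA groups. Its name follows the labels, since a reduction of Hira was detected with shHIRA I and not in the shHIRA II-labelled libraries. Among the 37 genes, 1 rose and 1 fell, where 29.3% of all genes tested passed the threshold (adjusted p under 0.05, edgeR quasi-likelihood test, Benjamini-Hochberg adjustment over all genes tested, here and below). The median log2 fold change of the 37 was -0.03 and that of all genes tested 0.03. On the deposited TPM, as log2(TPM + 1), these medians were 0.03 and 0.07. The sign for the 37 thus depended on the scale, while it stayed below the median of all genes in both. With 1 library left out, the median of the 37 ran from -0.22 (without shHIRA I replicate 1) to 0.13 (without shLuciferase replicate 1). In this comparison 13 of the 37 differences were positive and 24 negative. The median SE of 0.28 sets what could be seen: for Cdk1 the difference was 0.11 with a 95% interval from -0.39 to 0.60, and for Ccnb1 it was -0.02 with an interval from -0.57 to 0.53. Changes within those intervals were not detectable among these libraries.

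Cks1b, which binds cyclin-dependent kinases and serves in the destruction of the inhibitor p27, was the gene that rose. It was at 70.3, 26.6, 52.7 and 54.3 CPM in shLuciferase and at 81.2, 60.4, 47.2 and 39.1 CPM in shScramble. With shHIRA I it was at 99.9, 33.8, 156 and 93.6 CPM, and in the shHIRA II-labelled libraries at 67.7, 123, 73.5 and 56.3 CPM. The groups overlapped, and the highest library of each hairpin was the one with the least mitochondrial mRNA. The log2 fold change was 0.70 (SE 0.25, 95% interval 0.17 to 1.23, adjusted p = 0.0443). Without those libraries it was 0.39 (adjusted p = 0.220), and once the mitochondrial share entered as a covariate, -0.09 (adjusted p = 0.851). The share differed between the groups compared, so the covariate fit cannot separate it from the hairpins. In parental cells Cks1b was at 91.6, 83.8, 87.7 and 89.7 CPM, above all 8 control shRNA libraries.

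Gas2l3, which links actin and microtubules at the midbody, was the gene that fell. It was at 147, 62.3, 76.9 and 74.0 CPM in shLuciferase and at 128, 68.2, 60.5 and 68.7 CPM in shScramble. With shHIRA I it was at 96.4, 55.2, 22.0 and 75.6 CPM, and in the shHIRA II-labelled libraries at 47.0, 39.3, 53.6 and 44.3 CPM. All 4 libraries labelled shHIRA II lay below all 8 control libraries, a separation that 24% of all genes tested showed in 1 direction or the other, while shHIRA I overlapped the controls. The log2 fold change was -0.68 for HIRA knockdown (SE 0.24, 95% interval -1.18 to -0.17, adjusted p = 0.0414). It was -0.50 (adjusted p = 0.0692) without the 2 libraries of low mitochondrial share. Leaving out any 1 of the 20 libraries left at most 1 of the 2 calls of HIRA knockdown. Gas2l3 did not pass without replicate 1 of shLuciferase or of shScramble, shHIRA I replicate 2, or replicate 1, 2 or 4 labelled shHIRA II (adjusted p up to 0.10). With 1 library left out in turn, Cks1b passed in 4 of 20 fits, those without replicate 1 of shLuciferase or of shScramble, shHIRA I replicate 2, or replicate 4 labelled shHIRA II, and its adjusted p reached 0.111 in the others.

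By role, no other class held a gene past the threshold in HIRA knockdown. Of the 6 cyclins, CDK and CDK partners, Ccnb2 was at -0.17 and the class median at 0.04. The 6 mitotic kinases and activators ran from -0.15 (Tpx2, which activates Aurora A on the spindle) to 0.20 (Aurka), with Plk1 at -0.02 and Aurkb at -0.04. Among 5 checkpoint and kinetochore genes, Cenpe was lowest at -0.62 and Ndc80 highest at 0.04, and Bub1b, the checkpoint protein BUBR1, was at -0.06. Birc5 (survivin) and Cdca8 (borealin), partners of Aurora B in the chromosomal passenger complex, were at 0.34 and 0.19. The 3 genes of the anaphase-promoting complex and cell cycle degradation, Cdc20, Ube2c (its ubiquitin-conjugating enzyme) and Cdca3, lay between -0.03 and 0.02. The 9 spindle and motor genes had a median of -0.21, from Gas2l3 to Tacc3 at 0.27. They include the kinesins Kif11, Kif23, Kif20b and Kif2c and the spindle proteins Nusap1, Hmmr and Dlgap5. Anln (anillin, which scaffolds the contractile ring) and Ect2 (which activates RhoA there) were at -0.39 and -0.20. Mki67, the coat protein of mitotic chromosomes known as Ki-67, was at -0.64 (95% interval -1.32 to 0.04), while the condensin subunits Ncapd2 and Smc4 were at 0.38 and 0.21. Of the remaining genes, Bub1, Ttk, Nuf2 (the partner of Ndc80), Cenpf and Cks2 were all between -0.43 and -0.01.

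**Figure D3:**
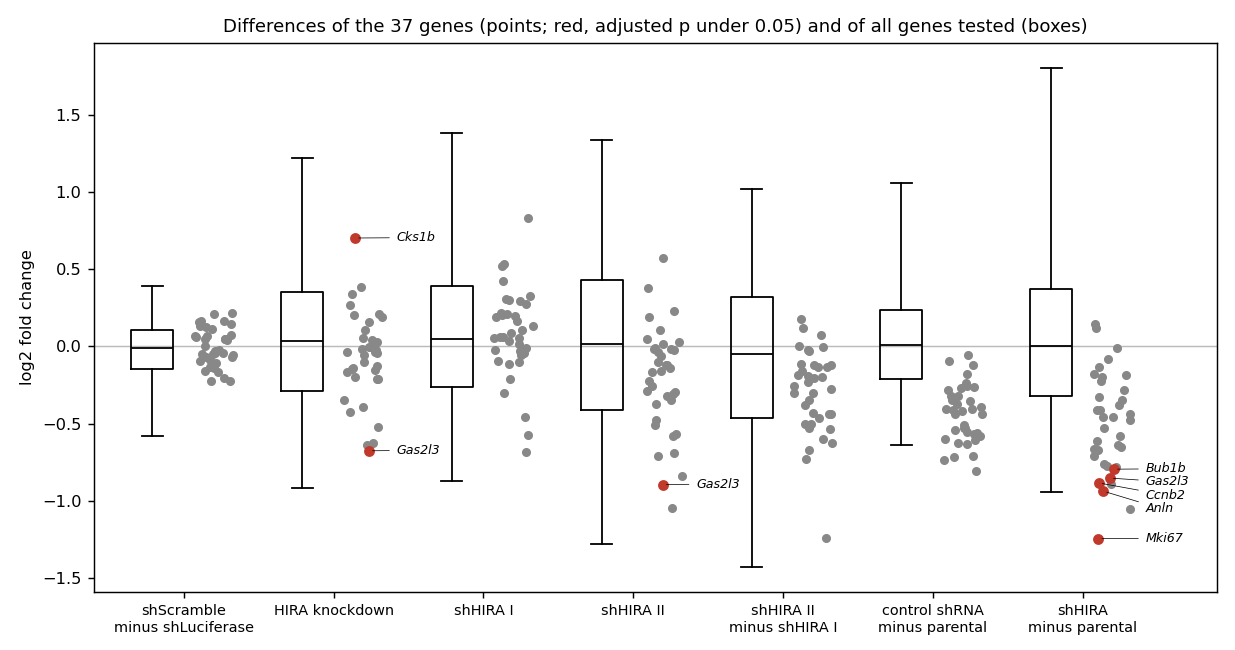
Log2 fold change (y axis) of the 37 genes (points, red where adjusted p is under 0.05) and of all 13541 genes tested (boxes: quartiles and median, whiskers at the 5th and 95th percentiles) in 7 comparisons (x axis). All 37 points lie below 0 for control shRNA minus parental, and the points of HIRA knockdown centre on -0.03.

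With the hairpins taken one at a time against both control groups, none of the 37 passed with shHIRA I, where 19.7% of all genes tested did. At an unadjusted p under 0.05 there was 1, Cks1b at 0.83 (SE 0.30, adjusted p = 0.0600), which DESeq2 called. Without shHIRA I replicate 2, the lowest library of its group in 26 genes, 3 genes passed (Cks1b, Ncapd2 and Tacc3), and without replicate 1 of shLuciferase or of shScramble Cks1b did. The median of the 37 was 0.06, but -0.19 without shHIRA I replicate 1 and 0.37 without shHIRA I replicate 2. In the shHIRA II-labelled libraries, 1 of the 37 fell against 32.4% of all genes tested that passed: Gas2l3, at -0.89 (SE 0.31, 95% interval -1.53 to -0.25, adjusted p = 0.0312). Gas2l3 did not pass without replicate 1 of shLuciferase or of shScramble, or without replicate 1, 2 or 4 labelled shHIRA II, with differences from -0.73 to -0.89 and adjusted p up to 0.0890. The median of the 37 was -0.16.

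The shHIRA II-labelled libraries against shHIRA I gave 0 of 37 genes past the threshold (0 at an unadjusted p under 0.05 and 0 with DESeq2), where 21% of all genes tested passed. In this difference 33 of the 37 were negative with a median of -0.26, and the lowest was Cenpf, a kinetochore and nuclear matrix protein, at -1.24 (SE 0.61, 95% interval -2.52 to 0.04). Without shHIRA I replicate 3, 3 genes passed (Cenpf, Gas2l3 and Kif11). The control hairpins against each other also gave 0 of 37 (0 at an unadjusted p under 0.05 and 0 with DESeq2), and 0% of all genes tested passed. The 37 differences between them ran from -0.22 (Mki67) to 0.22 (Cks2), with a median of -0.02. That balance rested on single libraries. The median was 0.35 without shLuciferase replicate 1 (1 of 37 negative) and -0.32 without shScramble replicate 1 (37 negative).

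Against parental cells, the median log2 fold change of the 37 genes was below 0 in every transduced group, at -0.48 in shLuciferase, -0.42 in shScramble, -0.36 with shHIRA I and -0.55 in those labelled shHIRA II. The value with shHIRA I was -0.12 without its replicate 2 (26 negative) and -0.70 without its replicate 1 (34 negative). With the mean of both control shRNA groups minus parental, all 37 differences were negative, from -0.81 (Ccna2) to -0.06 (Aurka), with a median of -0.41 against 0.01 for all genes tested. None of the 37 passed the threshold, where 3.62% of all genes tested did. At an unadjusted p under 0.05 there were 4, and DESeq2 called 0. All 37 were also negative with RLE scaling, with DESeq2 and on TPM, and 36 of them in the fit that held the mitochondrial share. These fits use the same libraries, and genes of a library move together, so the 37 signs are not independent results. The score of the 37 genes in replicate 1 of shLuciferase (0.73) and of shScramble (0.67) lay above the parental range of 0.34 to 0.55. With 1 library left out, 35 were negative without parental replicate 2, shScramble replicate 3 or shScramble replicate 4, and 36 without shLuciferase replicate 2. The 3 with the smallest p were Bub1b at -0.74 (SE 0.29, adjusted p = 0.181), Ccnb2 at -0.72 (SE 0.28, adjusted p = 0.190) and Ccna2 at -0.81 (SE 0.33, adjusted p = 0.201). Cks1b was the single gene with no overlap between the control shRNA and parental libraries, a separation seen in 6.38% of all genes tested in 1 direction or the other.

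With the mean of both HIRA hairpin groups minus parental, 5 of the 37 fell and none rose, where 24.5% of all genes tested passed. This comparison shares its parental libraries with the one before it. The median of the 37 was -0.47 and 35 were negative, the exceptions being Aurka (0.14) and Smc4 (0.12). Mki67 was at 472, 658, 479.5 and 507 CPM in parental cells. With shHIRA I it was at 323, 196, 43.7 and 373 CPM, and in the shHIRA II-labelled libraries at 219, 160, 268 and 208 CPM. All 8 HIRA hairpin libraries were below all 4 parental ones. Of all genes tested, 10.2% had no overlap in 1 direction or the other, and 629 of 13541 were lower in this way. For Mki67 the log2 fold change was -1.24 (SE 0.38, adjusted p = 0.0239). The same gene ranged from 165 to 635 CPM over the 8 control shRNA libraries.

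Anln was at 325, 386, 355 and 408 CPM in parental cells, at 359, 139, 122 and 328 CPM with shHIRA I and at 150, 146, 187 and 144 CPM in the shHIRA II-labelled libraries. The last group lay below every parental library, and shHIRA I overlapped them through replicates 1 and 4. The log2 fold change was -0.94 (SE 0.29, adjusted p = 0.0243). Ccnb2, at 169, 107, 125 and 122 CPM in parental cells, was at 116, 30.2, 69.0 and 97.1 CPM with shHIRA I and at 63.0, 70.6, 66.9 and 57.1 CPM in the shHIRA II-labelled libraries. Only shHIRA I replicate 1 reached into the parental range, and the log2 fold change was -0.88 (SE 0.28, adjusted p = 0.0280). Gas2l3 (parental 95.2, 101, 86.9 and 104 CPM) was at -0.85 (SE 0.29, adjusted p = 0.0357). Bub1b (parental 149, 176, 157 and 210 CPM) was at -0.79 (SE 0.29, adjusted p = 0.04996), at the edge of the threshold. Leaving out 1 library gave from 1 to 7 genes. The count was 1 without parental replicate 2 or 4, 2 without parental replicate 1 or without replicate 1 or 4 labelled shHIRA II, and 3 without parental replicate 3 or replicate 2 labelled shHIRA II.

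Comparing each hairpin with parental cells was added after the values were seen. With shHIRA I none of the 37 passed, where 16.8% of all genes tested did, and the median was -0.36. At an unadjusted p under 0.05 there were 2, DESeq2 called 0, and a fit with a term for the replicate number called 2. In the shHIRA II-labelled libraries, 7 of the 37 fell and none rose, where 29.3% of all genes tested passed, and the median was -0.55. The 7 were Anln (-1.24), Gas2l3 (-1.07), Bub1b (-1.06), Ccnb2 (-1.02), Mki67 (-1.31), Kif11 (-1.07), the kinesin that pushes spindle poles apart, and Cenpf (-1.67). All 4 of these libraries were below all 4 parental libraries in 19 of the 37 genes. In this comparison 37.2% of all genes tested had no overlap in 1 direction or the other, and 2604 of 13541 were lower in this way. Without shHIRA I replicate 2, which enters through the shared estimate of the spread, 11 genes passed. The count was 4 without parental replicate 2 or 3 or shLuciferase replicate 4, 3 without replicate 3 labelled shHIRA II, 2 without parental replicate 4 or replicate 2 labelled shHIRA II, and 1 (Anln) without replicate 1 or 4 labelled shHIRA II. In a test of any difference among the 5 groups, 0 of the 37 passed, where 37.7% of all genes tested did. At an unadjusted p under 0.05 there were 2, DESeq2 called 1, and the fit with a term for the replicate number called 3. Without shHIRA I replicate 2 or 3, 3 genes passed that test, and without replicate 1 of shLuciferase, shScramble or shHIRA I or replicate 2 of shLuciferase, 1 did.

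**Figure D4:**
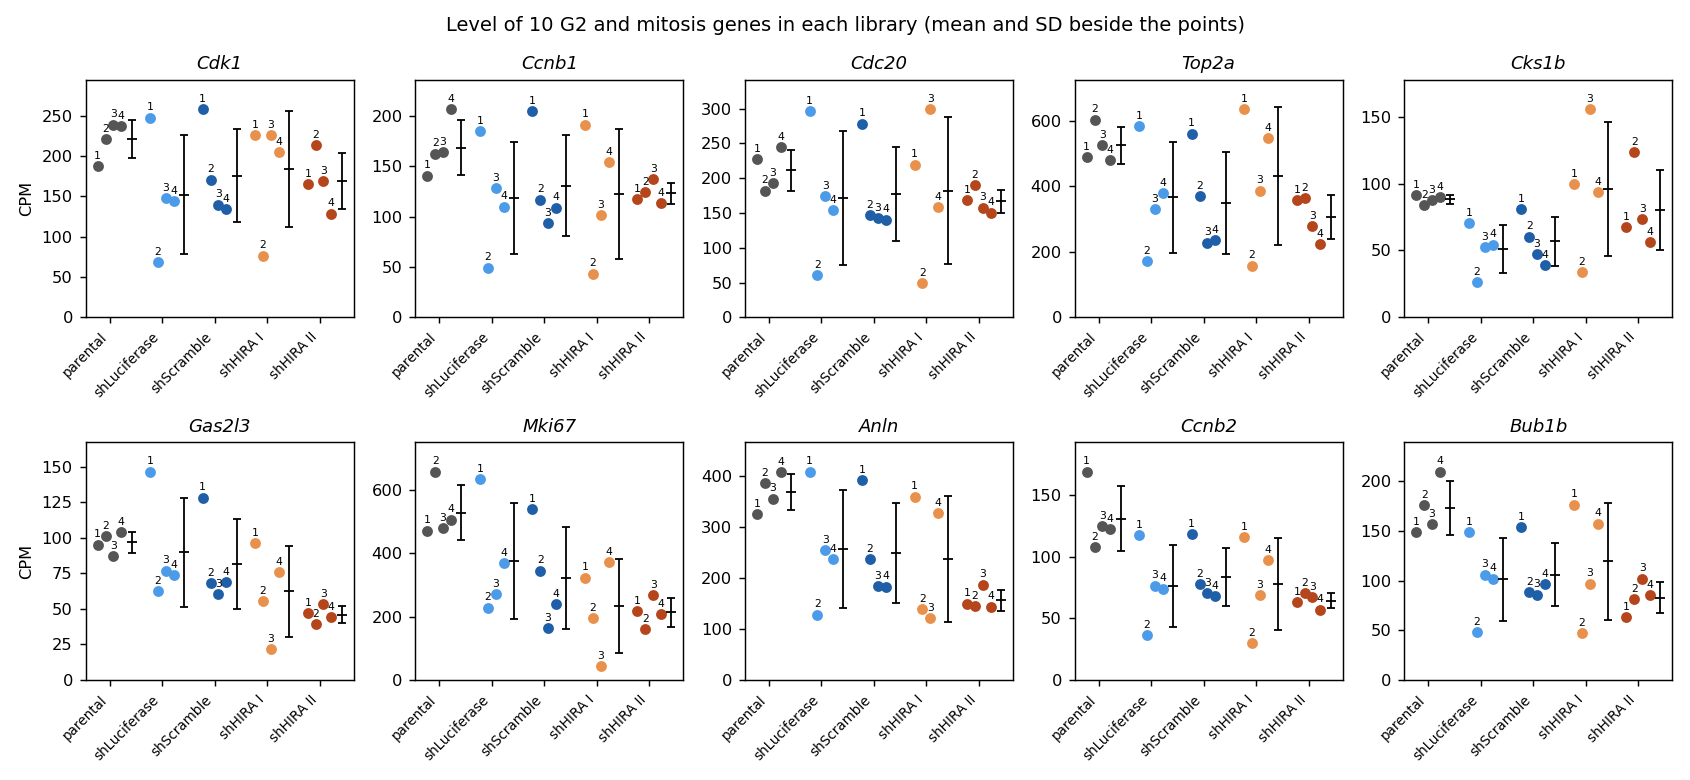
CPM (y axis, from 0) of 10 of the genes in each library by group; numbers are replicates and the bars beside the points show the mean and SD of 4 libraries. Gas2l3 is at 39.3 to 53.6 CPM in the shHIRA II-labelled libraries, below all control libraries, and Mki67 is below the parental libraries in all 8 HIRA hairpin libraries.

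The libraries with the least mitochondrial mRNA also set the short genes of the list apart from the long ones. The length used here is the one the deposited tables imply for each gene, relative to a median of 1 over all genes tested. In shHIRA I replicate 3, Cks1b (relative length 0.25) was at 156 CPM and Tacc3 (0.74) at 212 CPM, the highest of their group. In the same library Mki67 (4.49) was at 43.7 CPM, Cenpf (2.56) at 19.7 CPM and Gas2l3 (2.89) at 22.0 CPM, the lowest of theirs. In that library short genes were high and long genes low on average, with exceptions. Cks2 (0.22), the shortest of the 37, was at 44.8 CPM there, a deviation of -0.46 from its group mean. The mean deviation from the group mean was 0.40 on the log2 scale for the 10 shortest and -1.22 for the 10 longest of the 37 genes. In shHIRA II replicate 2 these means were 0.29 and -0.23. Spearman's rho between relative length and deviation, across the 37 genes of 1 library, was -0.80 and -0.72 in these libraries, and -0.42 and -0.41 across all genes tested. In shHIRA I replicate 2, with 9.58% mitochondrial mRNA, rho across the 37 was 0.71, and the 10 shortest and 10 longest stood at -1.38 and -0.38. Genes of 1 library are not independent replicates, and the deviations share each group's mean. The part of RNA quality in these patterns was not tested. With the mitochondrial share as a covariate, 1 of the 37 passed in HIRA knockdown (Cdc20, lower), where 22.1% of all genes tested did. The median of the 37 was -0.41, so the centre of the list in that comparison depends on this term. The fit cannot separate the share from the hairpins, since the share differed between the groups compared.

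**Figure D5:**
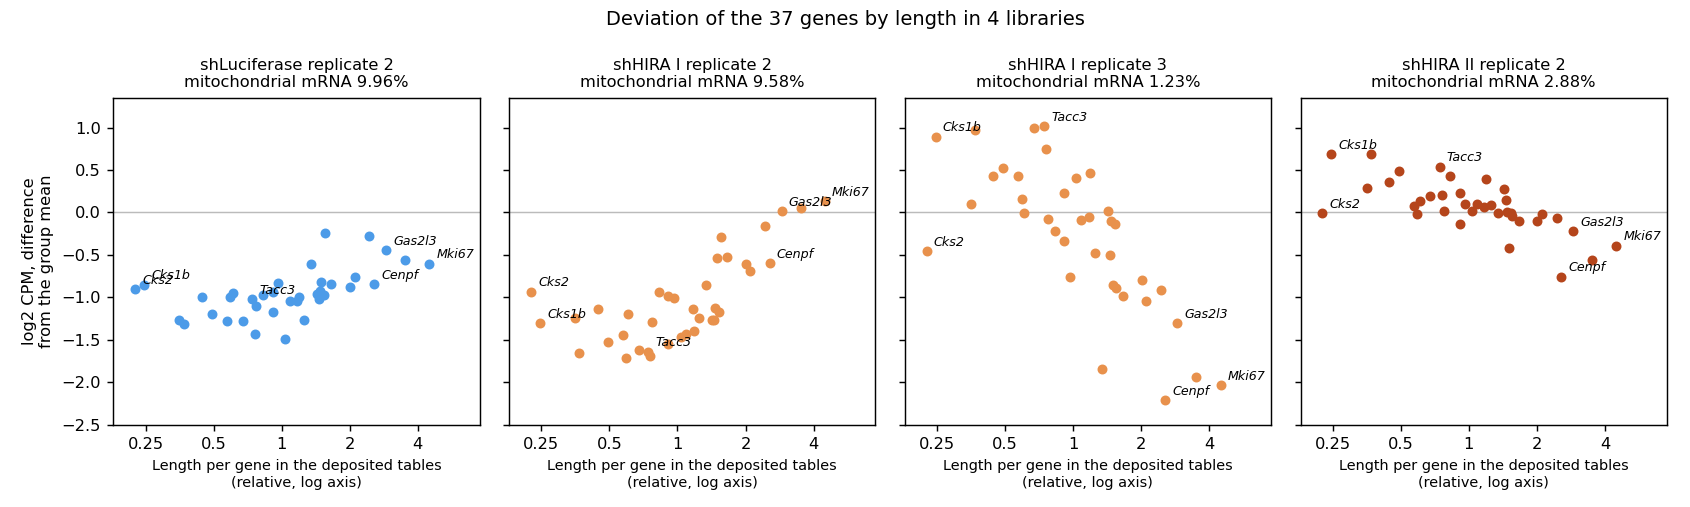
Deviation of each of the 37 genes from its group mean (log2 CPM, y axis) against the relative length of the gene (x axis, log scale) in 4 libraries, with the mitochondrial share of each in its title. In shHIRA I replicate 3 the 10 longest genes average -1.22 and the 10 shortest 0.40.

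Other genes of the cell cycle give the setting. Of 66 further G2 and M genes, 65 were tested. In HIRA knockdown 1 rose and none fell (1.54%, where 29.3% of all genes tested passed), with a median of 0.06. The one was Zwint, a kinetochore protein that anchors the RZZ complex, at 0.76 (SE 0.09, adjusted p = 8.668e-06), and both hairpins gave a rise (0.48 for shHIRA I, 1.04 for shHIRA II-labelled libraries). Against parental cells the medians of these 65 were -0.35 for the control hairpins and -0.37 for the HIRA hairpins. Cenpm, of the inner kinetochore, fell with the control hairpins (-1.22, SE 0.30, adjusted p = 0.0266) and with the HIRA hairpins (-1.03, SE 0.30, adjusted p = 0.0166). Their score per library had 15.8% of its sum of squares between groups, near the 19.1% of the 37 genes.

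The 46 S phase genes were all tested. In HIRA knockdown 15 of 46 (32.6%) passed, near the 29.3% of all genes tested. All 15 rose and none fell, and the median was 0.48 against 0.03 for all genes tested. The smallest p-values were those of Ung, the uracil-DNA glycosylase, at 0.78 (SE 0.15, adjusted p = 0.000882) and the transcription factor E2f2 at 1.04 (SE 0.29, adjusted p = 0.0123). In the control hairpins against parental cells 3 of 46 fell (6.52%, where 3.62% of all genes tested passed), with a median of -0.58. Among the 3 were Ung at -0.85 and Rfc2, a subunit of the clamp loader, at -0.73. In the HIRA hairpins against parental cells 0 of 46 passed, where 24.5% of all genes tested did. The median of the 46 was then -0.12, so the rise was one over the control hairpins and not over parental cells. Between groups lay 35.1% of the sum of squares of their score, and 26.5% among the 4 transduced groups, beside 1.07% for the 37 genes. Part of such a share arises without any group difference, so these values alone show no group effect. These lists are described side by side and their difference was not tested.

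Of 15 CDK inhibitors, D cyclins and partners, 14 were tested. In HIRA knockdown 3 rose and 2 fell (35.7%), near the 29.3% of all genes tested that passed. Ccnd3 (cyclin D3) rose by 1.05 (SE 0.12, adjusted p = 4.186e-06) and Cdkn2b, which codes for the inhibitor p15, by 0.76 (SE 0.22, adjusted p = 0.0123). Ccnd2 (cyclin D2) was at -0.49 (SE 0.10, adjusted p = 0.00102) and Cdkn2c, which codes for the inhibitor p18, at -0.51 (SE 0.18, adjusted p = 0.0417). By hairpin, Ccnd3 rose with both (1.28 for shHIRA I, 0.81 for shHIRA II-labelled libraries). Cdkn2b (1.34) and Ccnd2 (-0.76) passed with shHIRA I only, and Cdkn2c (-0.94) in the shHIRA II-labelled libraries only. All of them passed for shHIRA II minus shHIRA I (Ccnd3 -0.47, Cdkn2b -1.15, Ccnd2 0.54, Cdkn2c -0.88). Against parental cells, Cdkn1b, which codes for p27, was higher with the control hairpins (0.44, SE 0.11, adjusted p = 0.0398) and with the HIRA hairpins (0.60, SE 0.12, adjusted p = 0.000979).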

How the data were processed

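The authors deposited a table of estimated counts per gene and a table of TPM for 20 libraries; the submitters' processing notes name kallisto, edgeR, bcl2fastq and the build mm10, and the sources used here do not give versions, annotation or strand setting. In 9740 genes compared, the deposited counts equalled TPM times 1 length per gene (largest deviation 1.23e-09 on the log2 scale), so shifts between isoforms do not enter them. Control columns that name no hairpin were mapped to parental cells, and shHIRA columns without a numeral to shHIRA I, since no other groups remained. Of 29956 rows, 6990 were 0 in every library and 27 carried a spreadsheet date in place of a name. No 2 columns were identical (largest correlation of log2 CPM 0.98).

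Counts were rounded and tested with edgeR 4.0.16 (R 4.3.3; TMM scaling, filter on low counts by group, quasi-likelihood F test, group-means model over all 20 libraries); 13541 genes were tested, adjusted p under 0.05 passed, and edgeR passed a test on simulated data. SE is the absolute log2 fold change divided by the root of F. Scores use log2 CPM with a prior count of 2. Library totals of 14952948 to 20669874 counts limit precision less than the spread between libraries does. Alternatives were RLE scaling, no filter, DESeq2 1.42.0, limma 3.58.1 on log2(TPM + 1) and log2(TPM + 0.1), the mitochondrial share as a covariate, leaving out libraries, and a replicate block.

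The 37 genes, the role classes and the companion lists were chosen with earlier results of these data known, and are no independent evidence of direction. Values per library are given for genes that passed in a HIRA comparison, for 11 representatives of the roles, and for the 3 of smallest p in other comparisons with calls (several only in part); Tacc3, Cenpf, Kif20b and Cenpe were added after their values were seen. Of companion lists, at most 2 genes per direction and comparison are named, by smallest p. Promoters are RefSeq's; shared words come from GENCODE M21.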

Additional observations from a re-analysis of the deposited data

Results flagged for a closer look

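Of 85 groups of 4 libraries examined (the genes printed by library, Hira, the score and the mitochondrial share), 9 held a library whose gap to the nearest other, as a share of the range of its group, exceeded Dixon's critical value at 95%; chance gives about 1 group in 20, and genes of 1 library move together. In shScramble replicate 1 this held for 5 genes: Gas2l3 at 128 CPM (next 68.7), Plk1 at 149 CPM (next 76.9), Aurkb at 83.0 CPM (next 45.2), Bub1b at 154 CPM (next 96.2) and Cdc20 at 278 CPM (next 147). Cdk1 was at 76.4 CPM in shHIRA I replicate 2, where the next library was at 205 CPM. Anln was at 187 CPM in replicate 3 labelled shHIRA II, where the next was at 150 CPM. The score of the 37 genes was -0.387 in replicate 4 labelled shHIRA II, where the next was -0.14. The mitochondrial share was 2.88% in replicate 2 labelled shHIRA II, where the next was 4.45%.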

How the results depend on the processing

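Of the 37 genes, the number past the threshold in HIRA knockdown was 1 without a filter, 1 with either TPM fit, 1 with the covariate of mitochondrial share and 0 when the 2 libraries of low share were left out. For the HIRA hairpins against parental cells the TPM fits gave 0 and 0; for the libraries labelled shHIRA II against the controls they gave 0 and 0, and against parental cells 1 and 0. DESeq2 gave 1 for shHIRA I and 1 across the 5 groups. The share of the score between groups was 11.5% on log2(TPM + 1). Leaving out 1 library gave 0 to 1 for HIRA knockdown, 0 to 3 for shHIRA I, 0 to 3 for shHIRA II, 0 to 3 for shHIRA II minus shHIRA I, 1 to 7 for the HIRA hairpins minus parental, 0 to 1 for shHIRA I minus parental, 1 to 11 for shHIRA II minus parental, 0 to 3 across the 5 groups, and 14.5% to 28.2% for the score. The comparisons of shScramble with shLuciferase and of control hairpins with parental cells gave 0 genes in every alternative and with every library left out.

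The sign of small differences in HIRA knockdown turned, none past the threshold. Cdc20 was at 0.0157 with RLE and 0.0136 with DESeq2. On TPM + 1 and TPM + 0.1, Cdc20 was at 0.0864 and 0.0871, Ccnb1 at 0.0788 and 0.0797, Plk1 at 0.0636 and 0.0641, Aurkb at 0.0141 and 0.0122, and Bub1b at 0.0162 and 0.0157. With the mitochondrial covariate Cks1b was at -0.0852, Cdk1 at -0.41, Ndc80 at -0.14 and Top2a at -0.33. Without the 2 libraries of low mitochondrial share Cdk1 was at -0.019 and Ccnb1 at 0.0186. With 1 library left out, the ranges that crossed 0 were -0.0179 to 0.27 for Cdk1, -0.16 to 0.13 for Ccnb1, -0.18 to 0.15 for Plk1, -0.22 to 0.16 for Aurkb, -0.18 to 0.0733 for Bub1b, -0.0809 to 0.21 for Ndc80, -0.32 to 0.00925 for Kif11, -0.10 to 0.19 for Top2a and -0.19 to 0.19 for Cdc20. Cks1b ran from 0.52 to 0.84 (adjusted p 0.0051 to 0.111) and Gas2l3 from -0.82 to -0.51 (adjusted p 0.0182 to 0.10). The causes were not tested.

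The labels do not say whether equal replicate numbers mark a shared day, and the main fits left the libraries unpaired. Of 40 same-numbered pairs, 17 had a correlation of deviations over 0.1 (range -0.31 to 0.42). For 13 of 20 libraries the best correlation was with one of the same number, and no count expected without pairing was computed. All 37 genes were highest in replicate 1 of shLuciferase and of shScramble, and 30 in replicate 1 of shHIRA I. Replicate 1 of shLuciferase correlated at 0.41 with that of shScramble and at 0.36 with that of shHIRA I. Replicate 2 of shLuciferase correlated at 0.42 with that of shHIRA I. Whether replicate numbers pair the libraries was not tested. With the replicate block 8 genes passed for the HIRA hairpins against parental cells (5 without it). For shHIRA I against parental cells 2 passed (0 without it), and across the 5 groups 3 did (0 without it). With the block Ccnb1 was at 0.00905, Plk1 at 0.0138 and Cdc20 at 0.0557 in HIRA knockdown. Over all genes tested, control hairpins against parental cells gave 490 genes, 875 with DESeq2, 309 on log2(TPM + 1), 798 with the covariate and 844 when the 2 libraries were left out; shScramble against shLuciferase gave 0, and 5 with DESeq2; shHIRA II gave 4394, and 2767 with the covariate. Depth did not limit these genes as much as the spread between libraries of a group.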
